A study of Mus musculus with 3 samples.

Results

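The cadherin superfamily genes described here are the 62 genes, of 25562 in the deposited tables, whose symbol begins with Cdh and a digit, with Pcdh, or with Celsr and a digit, apart from Cdh2. They comprise 4 type I classical cadherins, 13 type II classical cadherins, 5 other Cdh genes, 24 rows of clustered protocadherins, 13 protocadherins outside the clusters and 3 Celsr genes. The cells were neurons of C57Bl/6 mouse embryos at day 14, taken from the medial ganglionic eminence (MGE), where many inhibitory interneurons of the cortex are born, and were 10 days in culture. The titles label every sample WT, for wild type. All cultures were silenced overnight on day 9 with tetrodotoxin (TTX), which blocks sodium channels, and AP-5, which blocks NMDA receptors. The 3 groups were 0, 1 or 6 h in 55 mM KCl, which depolarizes the membrane, with 1 library of strand-specific, ribosome-depleted RNA per time. The question was which genes of inhibitory neurons respond to activity. The labels do not say how many animals or dishes stand behind a library.

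Cadherins are calcium-dependent adhesion molecules built from repeated extracellular domains. The cytoplasmic tails of classical cadherins bind catenins, which link them to actin. Clustered protocadherins give a neuron a surface identity: each variable exon has its own promoter and is spliced to constant exons that all members of the alpha or of the gamma cluster share, while each beta gene stands alone. Protocadherins outside the clusters guide axons and shape synapses, and the Celsr genes, the vertebrate relatives of the fly gene flamingo, act in planar polarity and in axon tract formation.

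The libraries held between 8549377 and 8996897 uniquely mapped reads and between 2189394 and 2480579 sense exonic reads. Since each time has 1 library, no error between cultures could be estimated and no test was made. A ratio compares 2 libraries after TMM scaling of their reads, and its 95% interval covers counting error only. A gene was compared where 1 of the 2 libraries had at least 20 reads, and it was called higher or lower where the ratio was at least 2 or at most 0.5 and the interval excluded 1. The reads were not collapsed at identical positions and stood at 2.33 to 2.60 per distinct position, so the intervals may be too narrow. All 11 MGE interneuron markers found in the tables were measured, among them Gad1, the gene of a GABA-synthesizing enzyme, with 2787, 3457 and 5361 exonic reads at 0, 1 and 6 h. None of the 11 was called in exonic reads, and their median log2 ratio to 0 h was -0.02 at 1 h and -0.04 at 6 h. In introns, 4 of the 8 compared were called higher at 1 h and 3 of 8 at 6 h against 0 h. Of all genes compared in introns, 7.48% and 5.27% were called higher. Of 7 excitatory neuron markers none reached 20 reads in any library, and of 5 microglial markers Cx3cr1, Aif1 and Ptprc were at 0 throughout. All 8 astrocyte and radial glia markers were measured, with a summed level of 2268, 2351 and 2487 scaled reads per 1000000 at 0, 1 and 6 h. Olig2 was called higher and Pdgfra lower at 6 h among the 5 measured of 8 oligodendrocyte lineage markers. Of 5 markers of dividing cells 3 were measured and 1, Cdc2a, was called higher at 6 h. Of 8 endothelial, mural and meningeal markers 1 was measured and none called. Over all genes compared, 3.0% were called in exonic reads at 1 h and 10.3% at 6 h against 0 h. In such mixed bulk samples fewer cells of a type and less RNA per cell cannot be told apart, and the part of glial cells in the results below was not tested.

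In exonic reads, 48 of the 62 genes were measured, meaning 20 reads or more in some library, and 14 were not; 4 of these (Cdh1, Cdh5, Cdh16 and Cdh17) had no exonic read at all. They are E-cadherin of epithelia, VE-cadherin of endothelium, and cadherins of kidney and gut. A count of 0 allows up to 3 reads, which is 1.34, 1.19 and 1.27 scaled reads per 1000000 at 0, 1 and 6 h. Cdh15 of muscle had 1, 3 and 2 reads, and Pcdh12, an endothelial protocadherin, had 1, 4 and 1. Cdh3 had 1 read in all, and Cdh26 also 1. Cdh19, Cdh18 and Pcdh20 stayed at or below 11 reads, and the authors' model of Cdh18 spans only 11.0% of its RefSeq gene length.

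Exonic levels were compared per length, as TMM-scaled reads per 1000000 per kilobase of exon. The median of the 48 measured genes was 8.14, 8.73 and 7.25 at 0, 1 and 6 h, against 15.2, 15.3 and 15.0 for all 10311 measured genes. At the top stood 5 protocadherins from outside the clusters. Pcdh17, which acts in presynaptic assembly and axon growth, had levels of 57.0, 57.7 and 98.9 at 0, 1 and 6 h. Pcdh10, which takes part in synapse elimination, had 52.2, 50.4 and 63.9. Pcdh9 had 49.3, 54.3 and 92.9, Pcdh11x had 48.9, 56.5 and 61.6, and Pcdh19, whose human counterpart is mutated in an epilepsy of females, had 45.2, 41.3 and 47.2. The highest cadherin level was that of Cdh13, the membrane-anchored T-cadherin without a cytoplasmic tail, at 30.7, 23.3 and 30.1. Cdh4, or R-cadherin, followed with 23.8, 17.9 and 19.3. The most abundant Celsr gene was Celsr3, with 31.3, 26.2 and 19.1.

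**Figure D1:**
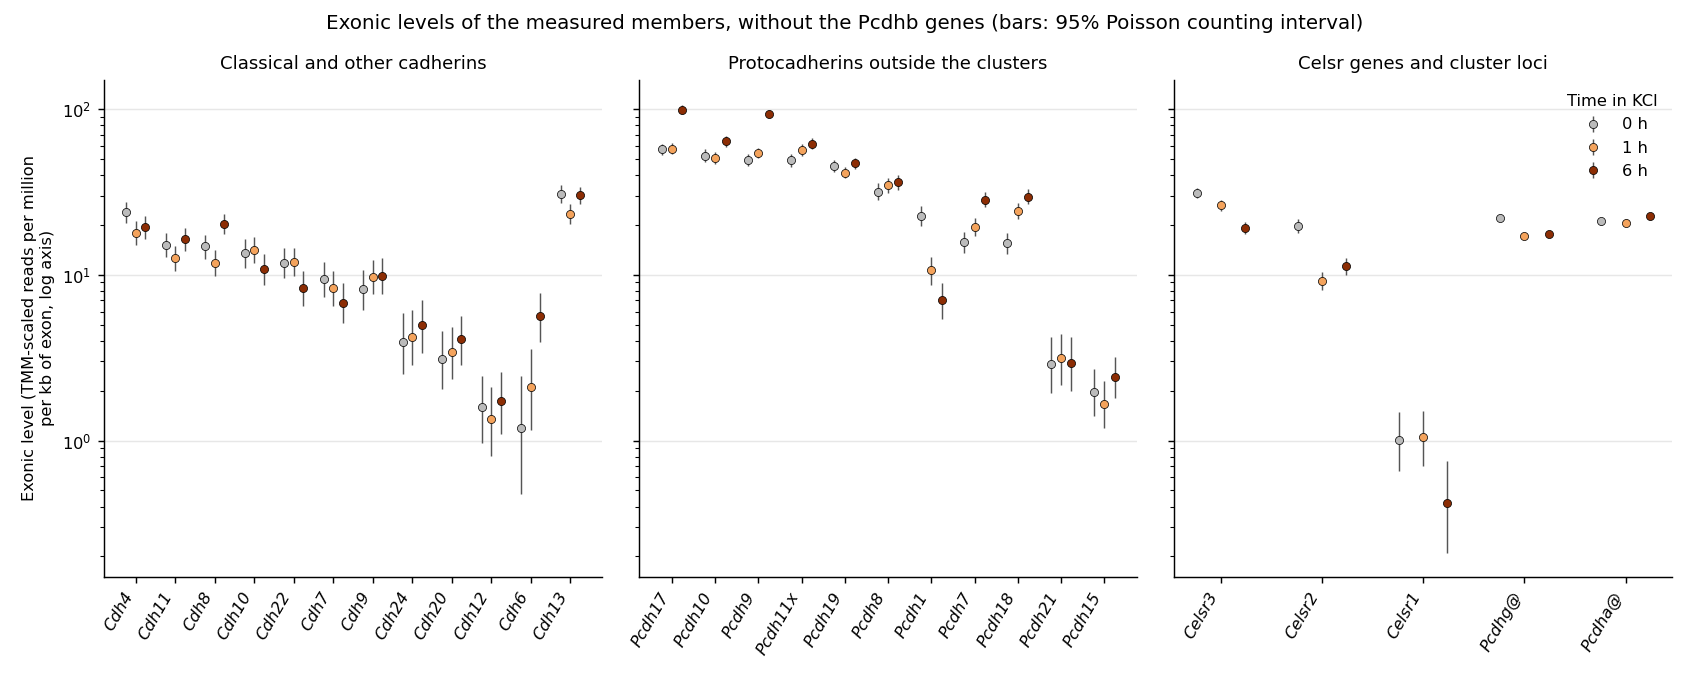
Exonic levels of the 28 measured genes outside the Pcdhb family, as TMM-scaled reads per 1000000 per kb of exon on a log axis, at 0 h (grey), 1 h (orange) and 6 h (brown) in KCl, with 95% Poisson counting intervals. Pcdh17 and Pcdh9 stand highest at 6 h, at 98.9 and 92.9, while Pcdh1, Celsr3 and Celsr1 are lowest in the 6 h library.

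Few members passed the call rule in exonic reads. At 1 h against 0 h, 45 members were compared, 0 were called higher and 3 lower (Celsr2, Pcdh1 and Pcdhb15). Over all 10093 genes compared, 3.0% were called, 1.58% higher and 1.43% lower. At 6 h against 0 h, 48 were compared, 1 was called higher (Cdh6) and 3 lower (Celsr1, Pcdh1 and Pcdhb15), against 10.3% of 10095 genes called, 4.92% higher and 5.42% lower. At 6 h against 1 h, 46 were compared, 2 were called higher (Cdh6 and Pcdhb8) and 1 lower (Celsr1), against 8.80% of 10137 genes called, 4.17% higher and 4.63% lower. The median log2 ratio of the members compared was -0.02, 0.06 and 0.09 in these 3 comparisons, against 0.01, 0.00 and 0.01 over all genes compared. The comparisons of 1 h and 6 h with 0 h share the 0 h library.

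**Figure D2:**
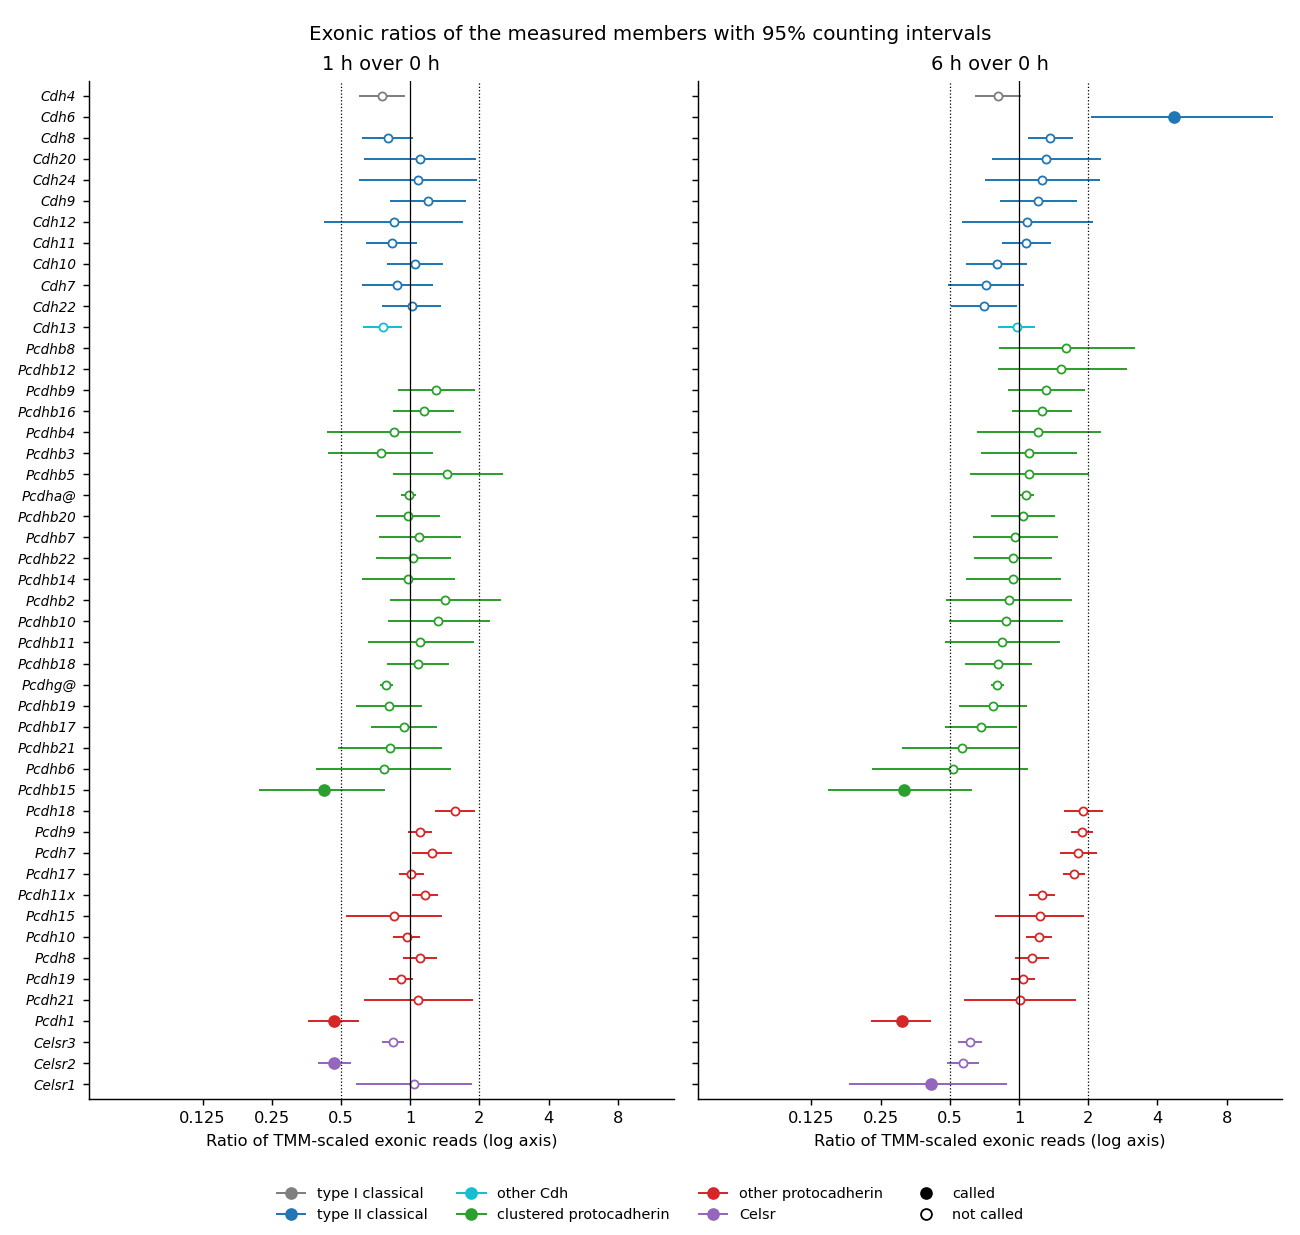
Ratio of TMM-scaled exonic reads at 1 h over 0 h (left) and 6 h over 0 h (right) for the 48 measured genes, on a log axis, with 95% counting intervals; filled points passed the call rule, and dotted lines mark ratios of 0.5 and 2. At 6 h, Pcdh18, Pcdh9, Pcdh7 and Pcdh17 lie between 1.73 and 1.91 with intervals above 1, and the 3 Celsr genes lie between 0.42 and 0.61.

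Among the protocadherins outside the clusters, 4 had exonic ratios of 1.73 to 1.91 at 6 h and Pcdh1 was lower. Pcdh9 (mm9 chromosome 14, 93412920 to 94287951, minus strand) had 610, 754 and 1216 exonic reads at 0, 1 and 6 h. Its ratio was 1.1 at 1 h (0.989 to 1.23) and 1.89 at 6 h (1.71 to 2.08), so the 6 h library stood apart from the other 2. Pcdh17 (mm9 chromosome 14, 84845481 to 84934008, plus strand) had 580, 658 and 1064 exonic reads, with ratios of 1.01 at 1 h and 1.73 at 6 h (1.57 to 1.92). Pcdh18, which binds the signalling adaptor Dab1, had 178, 313 and 359 reads. Its ratio was 1.57 at 1 h (1.30 to 1.90) and 1.91 at 6 h (1.59 to 2.30), so both later libraries were above the 0 h library. Pcdh7 had 194, 270 and 371 reads, with ratios of 1.24 (1.03 to 1.5) and 1.81 (1.52 to 2.16). None of these 4 reached the ratio of 2 that a call needs. Scaled to all uniquely mapped reads instead, 4 of the 48 members compared, Cdh6 among them, were called higher at 6 h in place of 1, against 6.87% of all genes under that scaling.

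The reads of both genes with the highest 6 h levels were mostly in the first exon, which in protocadherins encodes the extracellular domains. The first of 4 exons of Pcdh17, 2980 bp long, had 346, 428 and 679 reads at 0, 1 and 6 h, a ratio of 1.86 at 6 h over 0 h (1.63 to 2.12). Its other exons had 216, 211 and 350 reads, a ratio of 1.53 (1.29 to 1.82). The first exon of Pcdh9, 3036 bp long, had 455, 586 and 987 reads, a ratio of 2.05 (1.83 to 2.30), and its other exons had 150, 159 and 225, a ratio of 1.42 (1.15 to 1.76). The higher exonic counts at 6 h were thus found along both genes.

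Intronic reads, which in total RNA come largely from unspliced transcripts, were called higher in both genes. Pcdh17 had 654 intronic reads at 0 h, 1436 at 1 h and 1191 at 6 h. The intronic ratio was 2.99 at 1 h (2.72 to 3.28) and 2.04 at 6 h (1.85 to 2.25), both called higher, while the exonic ratio at 1 h was 1.01 (0.90 to 1.13). The 1 h library was the highest in introns and the 6 h library in exons. Pcdh9 had 7155, 5994 and 13114 intronic reads, with ratios of 1.14 at 1 h (1.1 to 1.18) and 2.06 at 6 h (2.0 to 2.12), the second called higher. In Pcdh9 the 6 h library was the highest in both introns and exons. With the factors of exonic reads the 1 h ratio of Pcdh17 was 1.96. The 6 h ratios were then 1.72 in Pcdh17 and 1.73 in Pcdh9, and with all mapped reads they were 1.91 and 1.92. None of these was a call. The 1 h intronic ratio of Pcdh9 was below 1 with both of these scalings, so its direction depends on the scaling. The intron share of the sense reads of Pcdh17 was 53.0%, 68.6% and 52.8%, and that of Pcdh9 92.1%, 88.8% and 91.5%, at 0, 1 and 6 h. Over all genes the share was 49.2%, 42.1% and 45.8%.

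The 250 bases before the annotated start of these 2 genes and of Celsr2, the Celsr gene with the lowest ratio at 1 h, were taken from the RefSeq promoter table (GRCm38.p6). Both protocadherin windows are rich in G and C and hold no E-box letters, CANNTG, and the Celsr2 window holds 3. Capitals mark the E-box letters. Pcdh17 is read from the plus strand at chr14:84443313-84443562, Pcdh9 from the minus strand at chr14:93890680-93890929 and Celsr2 from the minus strand at chr3:108415580-108415829.
Pcdh17: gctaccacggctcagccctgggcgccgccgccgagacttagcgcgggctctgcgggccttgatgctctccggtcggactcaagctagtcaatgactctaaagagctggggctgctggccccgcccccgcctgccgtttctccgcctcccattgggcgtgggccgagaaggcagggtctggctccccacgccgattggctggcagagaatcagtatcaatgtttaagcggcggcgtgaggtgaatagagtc
Pcdh9: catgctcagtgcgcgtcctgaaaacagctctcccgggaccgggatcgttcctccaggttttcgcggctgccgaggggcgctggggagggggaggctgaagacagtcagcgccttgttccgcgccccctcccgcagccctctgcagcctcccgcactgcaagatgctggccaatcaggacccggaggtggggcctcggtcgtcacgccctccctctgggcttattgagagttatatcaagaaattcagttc
Celsr2: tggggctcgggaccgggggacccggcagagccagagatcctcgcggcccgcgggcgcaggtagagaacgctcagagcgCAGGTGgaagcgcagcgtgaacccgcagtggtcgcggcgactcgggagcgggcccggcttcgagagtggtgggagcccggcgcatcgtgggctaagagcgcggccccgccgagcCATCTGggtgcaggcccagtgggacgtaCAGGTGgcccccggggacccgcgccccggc

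The same window was available for 25 members, and 3 short motifs were searched in it on both strands. The cAMP response element letters, TGACGTCA, were in 0 of the 25, against 1.77% of 27025 genes in the table. The AP-1 letters, TGANTCA, were also in 0 of the 25, against 7.82% of all genes. E-box letters were in 14 of the 25 (56.0%), against 69.3% of all genes. The median G and C content was 58.0% in the members and 52.4% in all genes. The window of Pcdh7 had no E-box letters, and those of Cdh6, Cdh12 and Cdh23 had 1 match each.

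The remaining protocadherins outside the clusters included the gene with the lowest 6 h ratio. Pcdh1 (mm9 chromosome 18, 38356348 to 38369416, minus strand) had 199, 104 and 65 exonic reads at 0, 1 and 6 h. It was called lower at 1 h, with a ratio of 0.47 (0.36 to 0.59), and at 6 h, with a ratio of 0.31 (0.23 to 0.41), so the counts were ordered by time; scaled to all uniquely mapped reads the 1 h ratio was 0.550, no longer a call. Its longest exon, 2835 bp, had 174, 82 and 49 reads, while the other 2 exons had 21, 20 and 16. Pcdh8, known in rat as the activity-induced protocadherin Arcadlin, had 282, 347 and 341 exonic reads and ratios of 1.1 and 1.14 at 1 and 6 h, neither of them called. Pcdh10 had 518, 560 and 670 reads, with a ratio of 1.22 at 6 h (1.09 to 1.37). Pcdh11x, on the X chromosome, had 491, 636 and 654, with ratios of 1.16 (1.03 to 1.30) and 1.26 (1.12 to 1.42). Pcdh19 had 607, 621 and 669 exonic reads with ratios of 0.91 and 1.04, and Pcdh21, the photoreceptor cadherin now called Cdhr1, had 28, 34 and 30. Pcdh15, a tip-link protein of inner ear hair cells, had 40, 38 and 52. The 13 genes as a class had 3738, 4347 and 5503 exonic reads, which was 32.1%, 36.4% and 42.9% of all exonic reads of the 62 genes, a share that needs no scaling between libraries.

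The clustered protocadherins lie on chromosome 18 and are given as 1 row for the alpha cluster, 1 for the gamma cluster and 22 beta genes. The alpha row had about the same scaled exonic reads at all times and the gamma row fewer at 1 and 6 h. Pcdha@ (mm9 37089939 to 37347311, plus strand) had 1724, 1901 and 1957 exonic reads at 0, 1 and 6 h, ratios of 0.98 at 1 h (0.92 to 1.05) and 1.07 at 6 h (1.01 to 1.15). Pcdhg@ (mm9 37821599 to 38001527, plus strand) had 2855, 2520 and 2432 reads, ratios of 0.79 (0.75 to 0.83) and 0.81 (0.76 to 0.85). The 22 beta genes together had 919, 1030 and 911 reads, ratios of 1.00 (0.91 to 1.09) and 0.94 (0.85 to 1.03). As shares of all clustered protocadherin reads, the gamma row held 51.9% at 0 h (exact binomial interval 50.6 to 53.3), 46.2% at 1 h (44.9 to 47.6) and 45.9% at 6 h (44.5 to 47.2). The alpha row held 31.4% (30.1 to 32.6), 34.9% (33.6 to 36.2) and 36.9% (35.6 to 38.2). The gamma share was lower at 1 and 6 h than at 0 h beyond counting error, and the alpha share higher. No row of the 3 kinds reached a 2-fold ratio as a sum.

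The constant exons are shared by all variants of a cluster, so their reads are not split by variant. They need not equal the cluster total, since total RNA also holds unspliced transcripts. The 3 alpha constant exons had 781, 881 and 902 reads at 0, 1 and 6 h, ratios of 1.01 (0.91 to 1.11) and 1.09 (0.991 to 1.2). The 3 gamma constant exons had 884, 717 and 746 reads, ratios of 0.72 (0.65 to 0.80) and 0.80 (0.72 to 0.88). The alpha cluster therefore held 46.9% of the constant exon reads of both clusters at 0 h (44.5 to 49.3), 55.1% at 1 h (52.7 to 57.6) and 54.7% at 6 h (52.3 to 57.2). The alpha share ran in the same direction in variable exons: alpha variable exons had 920, 1002 and 1023 reads, and gamma variable exons 1920, 1770 and 1656, so the alpha share was 32.4% (30.7 to 34.2), 36.1% (34.4 to 38.0) and 38.2% (36.3 to 40.1). Constant and variable exons of a row share libraries but not reads. Of the reads that spanned a junction from a variable exon, all 28 in the alpha and 27 in the gamma cluster, over the 3 libraries, went to the first constant exon. Only reads across RefSeq exon junctions were counted, so joins absent from RefSeq could not appear.

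The 36 variable exons could each be named from RefSeq gene lengths. In the alpha cluster the exon with most reads was that of Pcdhac2, a C-type isoform that serotonergic axons need for their spacing in mice, with 280, 233 and 309 reads at 0, 1 and 6 h. It held 30.4%, 23.3% (20.7 to 26.0) and 30.2% of the alpha variable reads, lowest at 1 h. Pcdha4 followed with 99, 150 and 151 reads, and 10.8% (8.83 to 12.9), 15.0% (12.8 to 17.3) and 14.8% (12.6 to 17.1) of the alpha variable reads. The Pcdha4 intervals at 0 h and the later times touch or overlap. In the gamma cluster the leading exons were Pcdhgc4, the isoform on which survival of mouse cortical interneurons depends, with 476, 445 and 381 reads, and Pcdhgc3, with 326, 310 and 294. Their shares of the gamma variable reads stayed at 23.0 to 25.1% and 17 to 17.8%. Their levels were 73.1 and 56.6 scaled reads per 1000000 per kb at 0 h. The 19 gamma A and B exons had 10.0, as pooled reads over pooled length. In sum these 19 exons held 1080 reads at 0 h, 56.25% of the gamma variable reads. Short reads map uniquely to C-type exons more often than to the more alike A, B and alpha exons, so levels between exons are uncertain.

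Exon by exon, 0 of 14 alpha exons were called at 1 h or at 6 h against 0 h. Of the 22 gamma exons, 1 was called lower at 1 h (Pcdhgb7, with 59, 30 and 34 reads at 0, 1 and 6 h) and 2 at 6 h (Pcdhga6, with 82, 53 and 41, and Pcdhgc5, with 38, 24 and 20). Over all single exons with at least 20 reads, 7.66% were called at 1 h against 0 h and 13.7% at 6 h, of which 4.0% and 5.31% of all exons compared were called lower. At 6 h against 1 h, 0 of 13 alpha and 0 of 21 gamma exons compared were called, against 11.6% of all exons compared, 4.65% lower. The ratio to 0 h was below 1 in 19 of 22 gamma exons at 1 h and in 19 of 22 at 6 h. In the alpha cluster it was below 1 in 6 of 14 and in 7 of 14. Both comparisons share the 0 h library. For all single exons the share with a ratio below 1 was not computed, and these counts depend on the scaling. With all uniquely mapped reads, the sum of the gamma variable exons had ratios of 0.970 at 1 h and 0.904 at 6 h.

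**Figure D3:**
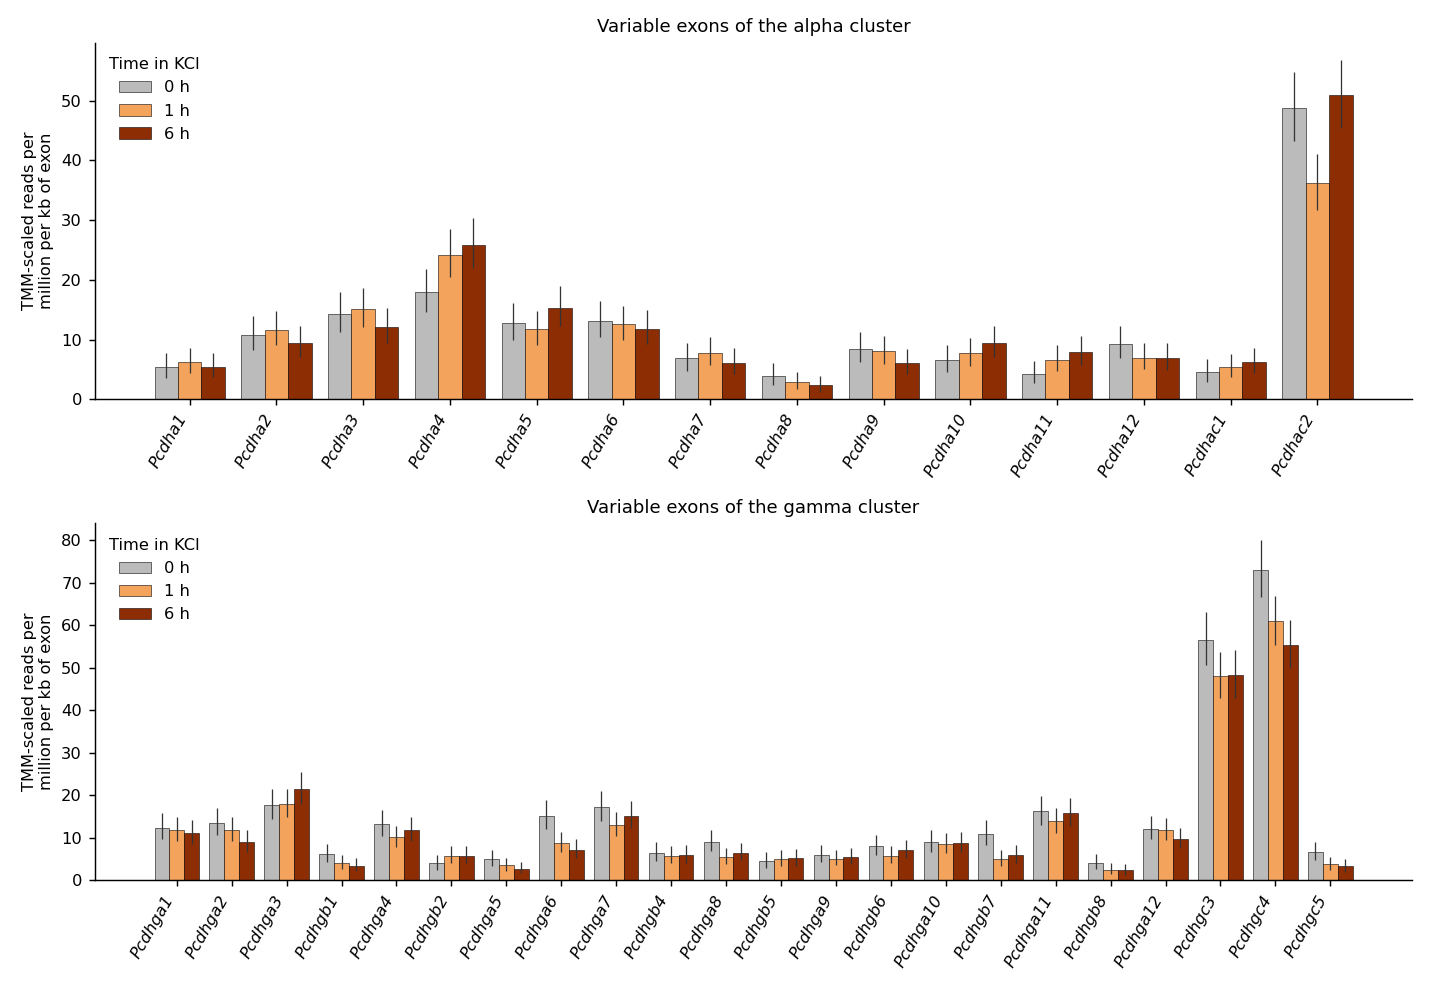
TMM-scaled reads per 1000000 per kb of each variable exon of the alpha (top) and gamma (bottom) clusters, in genome order, at 0 h (grey), 1 h (orange) and 6 h (brown), with 95% Poisson counting intervals. Pcdhac2, Pcdhgc3 and Pcdhgc4 stand above all other exons of their cluster, and most gamma exons are lower at 1 and 6 h than at 0 h.

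Of the 22 single-exon beta genes, 20 were measured, with 12 to 113 exonic reads in any library. Pcdhb15 was called lower at both times, with 36, 17 and 12 reads at 0, 1 and 6 h and ratios of 0.42 (0.22 to 0.77) and 0.32 (0.15 to 0.62). Pcdhb8 was called higher at 6 h against 1 h, with 16, 13 and 27 reads and a ratio of 2.2 (1.1 to 4.65), but not against 0 h, with 1.60. The most abundant beta genes were Pcdhb16, with 85, 109 and 113 reads, Pcdhb20, with 82, 90 and 90, and Pcdhb18, with 85, 103 and 73. Pcdhb1 had 0, 0 and 1 read. These copies are alike in sequence and only uniquely mapping reads were counted, so single beta genes are uncertain.

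All 3 Celsr genes had fewer scaled exonic reads at 6 h than at 0 h. Celsr2 (mm9 chromosome 3, 108193766 to 108218412, minus strand), a gene for dendrite maintenance and ependymal cilia, had 465, 244 and 281 exonic reads at 0, 1 and 6 h. It was called lower at 1 h, with a ratio of 0.468 (0.399 to 0.548), and its ratio at 6 h was 0.571 (0.491 to 0.664). The 1 h call was lost when libraries were scaled to all uniquely mapped reads, at 0.552. Its first exon gave 0.45 and its other exons 0.46 at 1 h, so the lower count ran along the gene. Celsr3 (mm9 chromosome 9, 108728651 to 108755300, plus strand), needed for major axon tracts of the forebrain, had 809, 760 and 524 reads, ratios of 0.838 (0.758 to 0.926) and 0.613 (0.548 to 0.685). Celsr1, a gene of neural tube closure, had 25, 29 and 11 reads and was called lower at 6 h against 0 h, at 0.416 (0.185 to 0.877), and against 1 h, at 0.402 (0.181 to 0.829). As a class the Celsr genes held 11.1%, 8.66% and 6.36% of the exonic reads of the 62 genes at 0, 1 and 6 h. Intronic reads were few, with 20, 13 and 8 in Celsr2 and 49, 50 and 34 in Celsr3, and neither gene was called in introns.

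At 1 h against 0 h, more partners of Celsr in planar polarity were called in introns than in exons. Of 10 such genes 8 were measured. In exonic reads 0 of 8 were called at 1 h or 6 h against 0 h, where 3.0% and 10.3% of all genes were. In introns 3 of 8 were called at 1 h and 0 of 8 at 6 h, where 13.7% and 10.9% of all genes were. At 6 h against 1 h, 1 of 8 was called in exons and 1 of 6 in introns, against 8.80% and 12.9% of all genes. Fzd3, the receptor paired with Celsr3 in axon growth, had 323, 338 and 461 exonic reads, with a ratio of 1.35 at 6 h (1.17 to 1.56). Prickle1 had 59, 41 and 119 and was called higher at 6 h against 1 h, at 3.08 (2.14 to 4.5). In introns Prickle1 was called lower at 1 h against 0 h and higher at 6 h against 1 h, with 109, 35 and 86 reads. Vangl1 introns were called lower at 1 h and Dvl1 introns higher. The median log2 exonic ratio of the 8 genes was -0.25 at 1 h and -0.13 at 6 h.

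Among classical cadherins, 1 of the 11 measured genes was called in exonic reads. Cdh6 (mm9 chromosome 15, 12963955 to 13103394, minus strand), a type II cadherin, had 7, 14 and 35 exonic reads at 0, 1 and 6 h. It was called higher at 6 h against 0 h, at 4.73 (2.07 to 12.6), and against 1 h, at 2.65 (1.39 to 5.33). Its reads lay in 5 of 12 exons at 0 h, 5 at 1 h and 11 at 6 h. Its introns had 43, 62 and 60 reads, ratios of 1.96 (1.31 to 2.97) and 1.56 (1.04 to 2.37), neither called. The higher exonic count at 6 h thus rests on few reads spread over most exons. The window before its start, on the minus strand at chr15:13173676-13173925 (GRCm38.p6, RefSeq), is shown because Cdh6 had the highest 6 h ratio; its 1 E-box match is in capitals.
Cdh6: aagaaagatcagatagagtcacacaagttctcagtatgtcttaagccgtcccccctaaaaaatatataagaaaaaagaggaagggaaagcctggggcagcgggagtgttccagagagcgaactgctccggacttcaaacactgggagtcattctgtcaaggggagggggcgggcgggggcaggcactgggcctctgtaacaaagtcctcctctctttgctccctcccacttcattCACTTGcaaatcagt

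The other 9 measured type II cadherins had ratios from 0.70 to 1.37 at 6 h against 0 h. Cdh8 had 143, 128 and 207 exonic reads at 0, 1 and 6 h, with ratios of 0.80 at 1 h and 1.37 at 6 h (1.1 to 1.71). Cdh11 had 143, 133 and 163 and ratios of 0.83 and 1.08. Cdh10 had 103, 121 and 87, Cdh22 had 94, 107 and 70, and Cdh7 had 71, 70 and 54. Cdh9, which acts at hippocampal mossy fibre synapses, had 53, 71 and 68. Cdh12 had 20, 19 and 23 exonic reads, but its introns, with 48, 43 and 97 reads, were called higher at 6 h, at 2.27 (1.59 to 3.27). The class as a whole had 687, 727 and 787 exonic reads, ratios of 0.94 (0.85 to 1.05) and 1.08 (0.977 to 1.2). Cdh4, the 1 measured type I gene, had 175, 148 and 150 exonic reads, ratios of 0.754 (0.602 to 0.944) and 0.811 (0.647 to 1.01). Its 672, 326 and 333 intronic reads gave ratios of 0.66 (0.577 to 0.755) and 0.556 (0.486 to 0.635), and intron 2 alone held 547, 269 and 256 of them. Cdh13 had 256, 218 and 265 exonic and 651, 383 and 624 intronic reads, in both lowest at 1 h. Cdh23, the other tip-link cadherin, had 0, 4 and 0 exonic reads, and its introns, with 28, 4 and 9 reads, were called lower at 1 h, at 0.19 (0.05 to 0.56), and at 6 h, at 0.36 (0.15 to 0.79).

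The catenin that classical cadherins bind most directly was among the genes with lower counts. Ctnnb1, or beta-catenin, had 1148, 477 and 449 exonic reads at 0, 1 and 6 h and was called lower at both times, at 0.37 (0.33 to 0.41) in each. Its introns, with 192, 196 and 163 reads, were not called. Of 12 catenin genes 8 were measured, and the other 7 were called in neither direction in exonic reads. Ctnna2, the neuronal alpha-catenin, had 707, 993 and 970 reads, ratios of 1.25 (1.14 to 1.38) and 1.30 (1.18 to 1.43). Ctnnd2, the catenin with most reads, had 1052, 936 and 1134. Introns of Ctnna3 were called lower at both times, with 76, 21 and 32 reads.

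In intronic reads the members called were mostly higher at 6 h. At 1 h against 0 h, 23 members were compared, with 1 called higher (Pcdh17) and 1 lower (Cdh23), against 13.7% of 8143 genes called, 7.48% higher and 6.19% lower. At 6 h against 0 h, 22 were compared, with 4 called higher (Pcdh7, Pcdh9, Pcdh17 and Cdh12) and 1 lower (Cdh23), against 10.9% of 8236 genes called, 5.27% higher and 5.59% lower. At 6 h against 1 h, 21 were compared, with 1 called higher (Pcdh7) and 0 lower, against 12.9% of 7734 genes called, 7.07% higher and 5.79% lower. Pcdh7 had 46, 33 and 95 intronic reads and a ratio of 2.32 at 6 h over 0 h (1.61 to 3.37). The authors' model of Pcdh7 spans 2.72% of the RefSeq gene length, that of Pcdh10 7.88% and that of Cdh18 11.0%. Those of Cdh12 and Pcdh1 span 41.6% and 50.0%. Reads outside these models, in exons or introns, were not counted. The median log2 intronic ratio of the members was -0.03, 0.22 and 0.17 in the 3 comparisons, against -0.05, 0.05 and 0.04 over all genes. Scaled by exonic factors instead, which moves the median log2 intronic ratio of all genes to -0.19 at 6 h against 0 h, 0 members were called higher and 4 lower, against 3.08% and 10.5% of all genes, and the ratios of Pcdh7 and Cdh12 were 1.95 and 1.91. Pcdh9 alone held 53.8%, 52.6% and 66.2% of the intronic reads of the 62 genes at 0, 1 and 6 h.

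**Figure D4:**
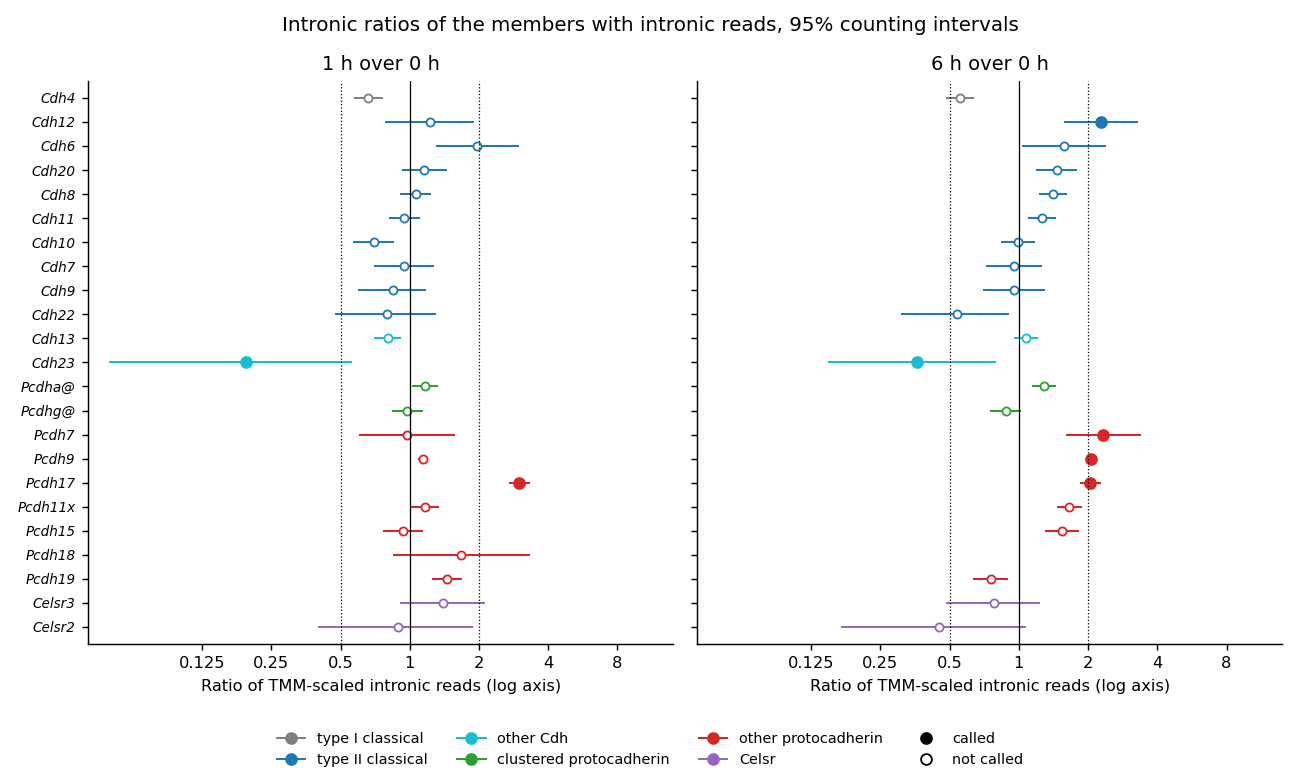
Ratio of TMM-scaled intronic reads at 1 h over 0 h (left) and 6 h over 0 h (right) for the 23 members with at least 20 intronic reads in 1 library, on a log axis, with 95% counting intervals and filled points for genes called. Pcdh17 is highest at 1 h, at 2.99, and Pcdh7, Cdh12, Pcdh9 and Pcdh17 lie between 2.04 and 2.32 at 6 h.

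The reads of the first intron in the authors' gene model were set beside those of all later introns. Pcdh11x (mm9 chromosome X, 117403936 to 118020059, plus strand) had 60, 94 and 188 reads in its first intron at 0, 1 and 6 h, and 444, 338 and 558 in its other introns. The first intron gave ratios of 2.13 at 1 h (1.53 to 3.0) and 3.51 at 6 h (2.61 to 4.78), and the other introns 1.04 (0.897 to 1.2) and 1.41 (1.24 to 1.60). At 1 h its first intron was higher while the sum of the others was near 1, and intron 4, with 72, 31 and 72 reads, was lower at 1 h, at 0.586 (0.372 to 0.905). The gene LOC100039461 overlaps Pcdh11x on the same strand, so the 2 genes may share reads. Pcdh15 had 54, 32 and 144 reads in its first intron and 220, 156 and 231 in the others, with ratios at 6 h of 2.99 (2.17 to 4.17) and 1.18 (0.97 to 1.42). The models of Pcdh15 and Cdh12 span 52.3% and 41.6% of the RefSeq gene, so their first intron may not be the first of the gene. The first-intron ratio was at least 2 times that of the other introns for Pcdh11x alone at 1 h against 0 h, as in 7.00% of 2786 genes compared. At 6 h against 0 h this held for Pcdh11x and Pcdh15, against 4.71% of 2847 genes, and at 6 h against 1 h for Pcdh15, Cdh12 and Cdh6, against 5.27% of 2674 genes. It was at most 0.5 times for Cdh6 at 1 h against 0 h (6.82% of genes) and for Cdh22 at 6 h against 0 h (5.23%), and for none at 6 h against 1 h (7.78%). Unlike a call, this rule used no interval. The intervals of the 2 ratios overlapped in each case of Cdh6, Cdh12 and Cdh22, but not in those of Pcdh11x and Pcdh15. In Cdh6 at 6 h against 1 h, the first intron was at 0.993 while the other introns were at 0.466.

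Pcdh17 and Pcdh9 differed at 1 h in how their first intron compared with the others. The first intron of Pcdh17 had 249, 689 and 486 reads at 0, 1 and 6 h, and intron 3 had 404, 746 and 704. At 1 h the ratio was 3.77 for the first intron (3.25 to 4.37) and 2.51 for the others (2.22 to 2.84). At 6 h these were 2.19 (1.87 to 2.56) and 1.95 (1.73 to 2.21), with overlapping intervals. The 3 introns of Pcdh9, a gene 875032 bp long, had 4354, 3680 and 8297 reads in the first, 1358, 1148 and 2083 in the second and 1443, 1166 and 2734 in the third. Its first intron had a ratio of 2.14 at 6 h (2.06 to 2.22) and its other introns 1.93 (1.84 to 2.02). Pcdh19 went another way: its introns had 381, 407 and 256 reads, with ratios of 1.45 at 1 h (1.26 to 1.68) and 0.75 at 6 h (0.64 to 0.89), neither called.

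**Figure D5:**
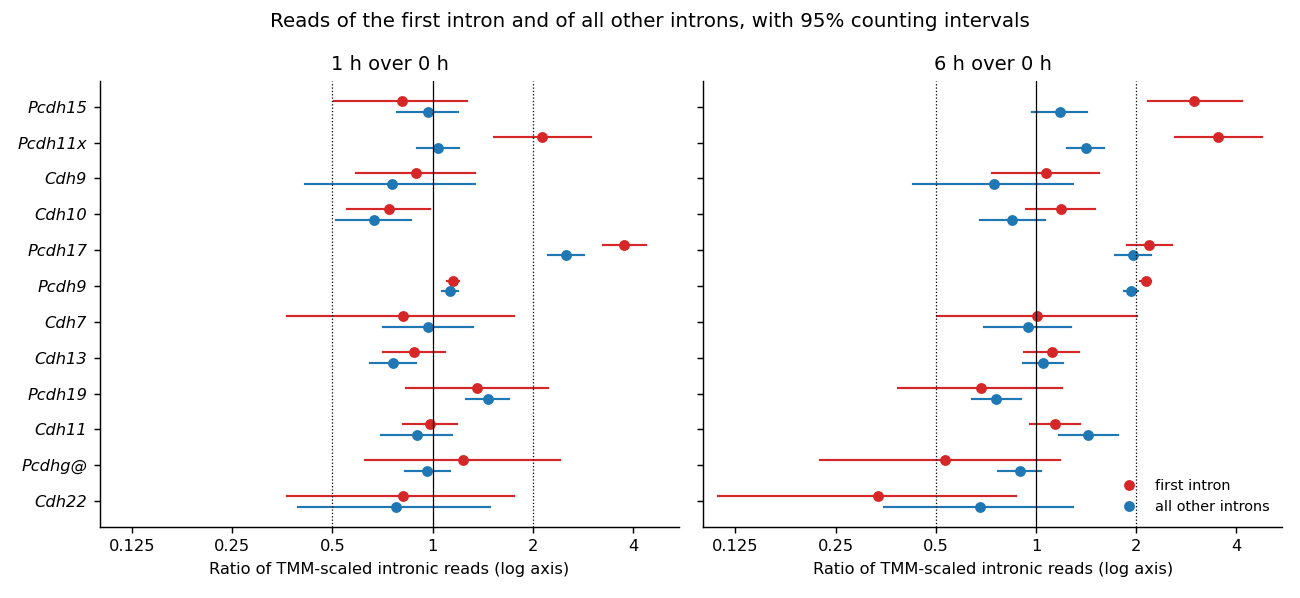
Ratio of TMM-scaled reads of the first intron (red) and of all other introns (blue) at 1 h over 0 h (left) and 6 h over 0 h (right) for 12 members, on a log axis, with 95% counting intervals. At 6 h the first introns of Pcdh15 and Pcdh11x, at 2.99 and 3.51, lie apart from the pooled other introns of the same genes. Intervals of some single later introns, not drawn, overlap those of the first.

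Genes that act downstream or upstream of protocadherins were read against the same shares of all genes, in exons 3.0% at 1 h and 10.3% at 6 h against 0 h, and in introns 13.7% and 10.9%. Of 11 genes of the WAVE actin regulator and of the kinases that protocadherin tails bind, 10 were measured and none was called in exonic reads. Nckap1, a WAVE subunit, had 1108, 1270 and 1961 exonic reads at 0, 1 and 6 h, a ratio of 1.67 at 6 h (1.55 to 1.80). Its introns, with 444, 395 and 824 reads, were called higher at 6 h, at 2.08 (1.85 to 2.34). Introns of Wasf2 and 6720456B07Rik, 2 of the 10 compared, were called lower at 1 h against 0 h and higher at 6 h against 1 h, where 12.9% of all genes were called. Of 12 genes for protocadherin promoter choice, among them Ctcf and the cohesin subunits, 11 were measured and none was called in exonic or intronic reads. Dnmt3a, a DNA methyltransferase, had the most reads, with 1092, 1226 and 1248. Of 6 genes for cadherin cleavage 4 were measured, and Psen2, a presenilin, was called lower at 6 h, with 39, 54 and 17 reads and a ratio of 0.412 (0.219 to 0.746) to 0 h, and 0.334 (0.181 to 0.585) to 1 h. Ncstn, with most reads of that list, had 342, 387 and 274.

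Of 10 further cadherin superfamily genes 9 were measured and none was called in exonic reads. Fat1, a giant cadherin, had 1109, 970 and 1767 exonic reads at 0, 1 and 6 h, a ratio of 1.51 at 6 h (1.40 to 1.63). Its introns, with 149, 129 and 309 reads, were called higher at 6 h, at 2.33 (1.91 to 2.85). Among the calsyntenins, Clstn1 had 1090, 632 and 603 reads, ratios of 0.52 (0.47 to 0.57) and 0.52 (0.47 to 0.58), and Clstn3 had 1103, 1238 and 1833, ratios of 1.00 and 1.57 (1.46 to 1.69). The introns of Clstn3 were called higher at 1 h, with 78, 139 and 93 reads.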

How the data were processed

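Per the labels' protocols, RNA of each culture was depleted of ribosomal RNA and sequenced in a directional way on an ABi SOLiD instrument. Only 35 bp reads with a single mapping place in the genome or across RefSeq exon junctions and at most 3 mismatches entered the tables, per the counting logs; the submitters' processing notes name build mm9. Which aligner was used is not given here. The authors deposited raw read counts per gene, exon, intron and junction, by strand, and a coverage signal scaled to 10000000 mapped reads, used here only as an alternative.

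Exonic and intronic sense counts were each scaled with TMM factors (edgeR 4.0.16, R 4.3.3; exonic alternative DESeq2 1.42.0). Ratios have exact Clopper-Pearson 95% intervals (scipy 1.17.1, Python 3.11.15), and median log2 ratios use a pseudocount of 0.5 reads. No test across genes was run; the call rule was tested on simulated data. The genes and lists were chosen with earlier results of these data known. The text names the members called in any comparison, the 5 members of each class with most exonic reads, and in the other lists the genes called and the gene with most reads; Pcdh18, Pcdh8, Pcdh15, Pcdh20, Pcdh21, Pcdh12, Pcdhb1, Cdh5, Cdh9, Cdh18, Cdh19, Clstn1, Ctnna2, and single introns and exons were added after their values were seen. Variable exons were named by the distance from their start to the cluster end, within 2000 bp of a RefSeq gene length (GRCm38.p6). Promoter windows come from RefSeq (25 of 36 members on chromosomes other than 18).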

Additional observations from a re-analysis of the deposited data

Results flagged for a closer look

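Antisense reads lie outside the strand that every comparison above used. Over the exons of Pcdha@ there were 21, 25 and 25 antisense reads at 0, 1 and 6 h, and over those of Pcdhg@ 45, 36 and 30, each above the 3 reads that a count of 0 allows. They were 1.2%, 1.30% and 1.26% of the exonic reads of both strands in the alpha row and 1.55%, 1.41% and 1.22% in the gamma row. Over all genes the share was 1.55%, 1.36% and 1.29%. The other 60 members had at most 5 antisense exonic reads in a library, and 45 of them had 0 in all 3.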

How the results depend on the processing

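No paired analysis was possible because each time has 1 library, and for the same reason no library could be left out. Counts of called members stayed within 1.5 times of the values above in 28 of 36 alternatives. With exonic factors the intronic calls were instead 0 higher and 3 lower at 1 h, and 0 higher and 4 lower at 6 h, against 0 h. The members called higher with intronic factors kept ratios above 1 in these comparisons but fell short of 2. Other members were called lower in their place. Scaled to all uniquely mapped reads, which moves the median log2 exonic ratio of all genes to 0.25 at 1 h and 0.15 at 6 h against 0 h, and the intronic one to -0.43 and -0.04, 1 member was called in exonic reads at 1 h against 0 h, 7 at 6 h against 0 h, and 3 in intronic reads at 6 h against 1 h, where 3.45%, 10.6% and 16.0% of all genes were called. The authors' coverage gave 0 calls at 1 h against 0 h, and exonic factors gave 4 intronic calls at 6 h against 1 h. With a minimum of 50 reads, 1 member was called at 6 h against 0 h and 0 at 6 h against 1 h in exonic reads, and 1 at 1 h against 0 h in intronic reads. Of 110 alternative ratios of called members, 21 no longer passed the rule and none turned its direction. Alternatives that changed only the read minimum kept the same ratio, so its direction could not turn. A lower minimum could also lose no call.

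Sums of classes were rescaled as an addition made after the data were seen. Among sums whose interval excluded 1, those that turned with mapped reads were the clustered protocadherin exonic sum (1.04 at 1 h and 1.01 at 6 h against 0 h), the exonic sum of all members at 1 h (1.08), the intronic sums of the other protocadherins (0.991) and of all members (0.901) at 1 h against 0 h, and of type I cadherins at 6 h against 1 h (1.01). With total exonic reads the exonic sum of all members at 6 h was 0.971. With exonic factors the intronic sums were 0.839 for the other protocadherins and 0.764 for all members at 1 h, 0.941 for the clustered protocadherins at 6 h against 0 h, and 1.08 for type I cadherins at 6 h against 1 h. The sums of gamma variable and of gamma constant exons stayed below 1 at 1 and 6 h against 0 h under the 3 other scalings tried. Several sums whose interval included 1 also crossed 1 under another scaling. The cause was not tested. Counts under 50 reads, as in Cdh6, Celsr1 and single beta genes, limit the precision.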
